A study of Mus musculus with 3 samples.

Results

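MHC class I molecules are the cell surface complexes that show peptides made inside a cell to T cells and natural killer cells. The 10 genes described here are the heavy chains H2-K1, H2-D1, H2-Q4, H2-Q6, H2-Q7, H2-T22, H2-T23 and H2-M3, the light chain B2m and the transporter subunit Tap1. They are the rows of the deposited gene table with these symbols, 10 of 32286 genes. They were chosen by measured levels of this study, since H2-T23 had been lower and H2-Q7 higher in the KO_DMSO library, so the values of that comparison are a description and carry no test.

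Airway cells were washed from the lungs of mice 14 days after bleomycin, a drug used in mice to set off injury and scarring. KO_DMSO came from Clec7a knockout mice given the vehicle DMSO, WT_GW5074 from wild-type mice given GW5074, a RAF kinase inhibitor, and WT_DMSO from wild-type mice given DMSO. Clec7a encodes Dectin-1, a receptor for fungal beta-glucans. All 3 groups had bleomycin, all were sorted for CD11b+ or CD11c+ cells, and each group is 1 library from lavage pooled over mice. The number of mice, their strain, sex and age, the kind of knockout allele and the dose of GW5074 were not given in the sources used here. With 1 library per group no difference has a replicate check, and every interval below is a 95% interval that covers counting error only.

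A classical heavy chain folds with beta-2 microglobulin around a peptide that the Tap1-Tap2 transporter has pumped into the endoplasmic reticulum. H2-K1 and H2-D1 are the classical chains of the mouse. The nonclassical chains have narrower tasks: H2-T23 is Qa-1, which carries a leader peptide of classical chains to the CD94-NKG2 receptors of natural killer and CD8 T cells, H2-Q6 and H2-Q7 encode Qa-2 antigens, H2-T22 is a ligand of gamma-delta T cell receptors and H2-M3 presents formylated peptides of bacteria. Interferons and the transactivator Nlrc5 are known inducers of classical chains, B2m and Tap1, and migratory dendritic cells carry class I molecules at high levels.

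All members but B2m lie in the MHC on chromosome 17, in the annotation GENCODE M21 of GRCm38 (mm10), the build named in the submitters' processing notes. From one end to the other they are H2-K1 (chr17:33996017-34000347, minus strand), Tap1 (chr17:34187553-34197225, plus), H2-D1 (chr17:35262730-35267499, plus), H2-Q4 (chr17:35379617-35385290, plus), H2-Q6 (chr17:35424850-35430055, plus), H2-Q7 (chr17:35439155-35443773, plus), H2-T23 (chr17:36029773-36032855, minus), H2-T22 (chr17:36037128-36042747, minus) and H2-M3 (chr17:37270220-37274484, plus). B2m is on chromosome 2 (chr2:122147686-122153083, plus). H2-T23 and H2-T22 are 4.27 kb apart and H2-Q6 and H2-Q7 9.1 kb apart, so both pairs share their surroundings.

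The 250 bases before the RefSeq start site are shown for both pairs, for B2m and for Tap1, since these are the genes whose levels part or move together below. RefSeq starts can differ from the ends of the GENCODE spans above, and the H2-T23 window lies partly inside the GENCODE span of that gene. The sequences are RefSeq windows of GRCm38.p6, written 5′ to 3′ along the gene's own strand, and capitals mark the core of an interferon-stimulated response element, searched on both strands as GAAA or GAA, then any 2 bases (NN), then GAAA.
H2-T23 (chr17:36032702-36032951, minus strand): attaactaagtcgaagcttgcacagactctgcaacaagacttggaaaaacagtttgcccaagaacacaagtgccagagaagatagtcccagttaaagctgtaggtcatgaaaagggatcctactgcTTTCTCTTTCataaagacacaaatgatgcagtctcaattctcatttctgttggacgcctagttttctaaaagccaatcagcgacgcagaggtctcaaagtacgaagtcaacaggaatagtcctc
H2-T22 (chr17:36042743-36042992, minus strand): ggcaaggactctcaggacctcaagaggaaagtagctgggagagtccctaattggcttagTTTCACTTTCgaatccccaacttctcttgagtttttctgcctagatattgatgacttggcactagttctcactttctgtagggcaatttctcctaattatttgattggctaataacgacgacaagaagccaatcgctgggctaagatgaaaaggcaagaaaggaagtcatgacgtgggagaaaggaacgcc
H2-Q6 (chr17:35424600-35424849, plus strand): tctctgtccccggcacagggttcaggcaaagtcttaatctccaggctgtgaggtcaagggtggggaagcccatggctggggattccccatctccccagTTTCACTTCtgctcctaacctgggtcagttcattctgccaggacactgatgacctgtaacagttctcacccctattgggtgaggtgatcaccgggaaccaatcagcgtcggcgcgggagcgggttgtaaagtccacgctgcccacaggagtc
H2-Q7 (chr17:35438905-35439154, plus strand): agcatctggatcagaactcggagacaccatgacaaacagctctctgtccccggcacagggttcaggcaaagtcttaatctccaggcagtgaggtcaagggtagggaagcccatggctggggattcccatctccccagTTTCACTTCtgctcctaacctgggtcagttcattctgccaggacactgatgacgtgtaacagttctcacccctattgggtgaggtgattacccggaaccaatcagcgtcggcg
B2m (chr2:122147437-122147686, plus strand): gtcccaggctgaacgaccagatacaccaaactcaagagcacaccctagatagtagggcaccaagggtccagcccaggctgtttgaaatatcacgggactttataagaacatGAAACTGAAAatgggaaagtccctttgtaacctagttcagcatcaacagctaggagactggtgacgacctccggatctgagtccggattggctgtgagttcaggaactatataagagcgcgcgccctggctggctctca
Tap1 (chr17:34187306-34187555, plus strand): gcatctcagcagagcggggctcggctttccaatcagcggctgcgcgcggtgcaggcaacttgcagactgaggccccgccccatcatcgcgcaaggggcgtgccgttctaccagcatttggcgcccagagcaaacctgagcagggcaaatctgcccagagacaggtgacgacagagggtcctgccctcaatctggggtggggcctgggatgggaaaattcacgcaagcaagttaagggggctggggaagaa
The core was found once in the window of each of the 9 members other than Tap1, against 8.82% of 32851 annotated windows of the same length. The Tap1 window held no match, and it overlaps most of the window of the immunoproteasome gene Psmb9, which runs on the other strand. A kappaB site, searched on both strands as GGGGA joined to TTCCC, with or without 1 more C at its end so that the shorter form lies inside the longer, was in the windows of H2-K1, H2-D1, H2-Q6 and H2-Q7 and in 0.0852% of all windows. It was in neither the H2-T23 nor the H2-T22 window. These matches are letters in a window and say nothing of binding.

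The libraries held 34859676 UMIs in 11678 barcodes (KO_DMSO), 45462817 in 17809 (WT_GW5074) and 39180331 in 13504 (WT_DMSO), with medians of 2937, 2276 and 2438.5 UMIs per kept cell. Clec7a itself was at 14.1, 895 and 880.3 UMIs per 1000000 UMIs of the class (CPM) in alveolar macrophage-like cells of KO_DMSO, WT_GW5074 and WT_DMSO. Cells were sorted into classes by a gate on marker genes: at least 2 markers of a class, at a share of its markers at least 2 times that of the next class. This placed 27422 of 42888 kept cells (63.9%), and 7 classes had at least 100 cells in each library. In KO_DMSO, WT_GW5074 and WT_DMSO these were resident alveolar macrophage-like (2011, 2282 and 599 cells), monocyte-derived macrophage-like (2838, 5273 and 1868), neutrophil-like (181, 113 and 2657), cDC1-like (conventional dendritic cells of type 1; 437, 642 and 407), cDC2-like (101, 143 and 117), migratory dendritic cell-like (1601, 2506 and 2652) and T cell-like cells (198, 175 and 183). Markers of the own class led each, with 3 to 8 among its 10 leading genes and 0 of another class. The gate had picked the cells by markers from the same lists, so this is no independent check of the classes. The sort was for myeloid cells, so the T cells are those that passed it. Neutrophil RNA differed between libraries: the summed level of 10 neutrophil markers was 283, 199 and 518.5 CPM in alveolar macrophage-like, 292, 319.9 and 1452 CPM in monocyte-derived macrophage-like, 41.2, 88.8 and 504 CPM in cDC1-like and 54.9, 102 and 684 CPM in migratory dendritic cell-like cells of KO_DMSO, WT_GW5074 and WT_DMSO. Of the 10 markers, 5 to 9 had a UMI in these classes of KO_DMSO, with Stfa2l1 at 0 in each, against 7 to 10 in WT_GW5074 and 10 in WT_DMSO. Its part in the results was not tested beyond leaving out cells with a UMI of S100a8 or S100a9. Between 80 and 154 cell barcodes were shared by each pair of libraries, 704 cells in all.

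Across the classes the KO_DMSO library differed from WT_DMSO in few class I genes. H2-T23 was lower in the 4 classes whose smallest library held the most cells (both macrophage classes, cDC1-like and migratory dendritic cell-like cells, called the large classes below), by 1.81-fold to 2.85-fold, and B2m was higher in these 4, by 1.33-fold to 1.48-fold. H2-Q6, H2-Q4 and Tap1 were lower in some classes only. H2-K1, H2-D1, H2-T22 and H2-M3 stayed within 1.5-fold in these 4 classes, and so did H2-Q7, apart from the alternative settings named with H2-T22 and H2-Q7 below. In these 4 classes no member of WT_GW5074 differed from WT_DMSO by 1.5-fold.

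H2-T23 was at 80.6 CPM in alveolar macrophage-like cells of KO_DMSO, against 139.6 CPM in WT_GW5074 and 189.5 CPM in WT_DMSO. In monocyte-derived macrophage-like cells it was at 103 CPM in KO_DMSO, against 192 CPM in WT_GW5074 and 186.5 CPM in WT_DMSO. The KO_DMSO level was thus the lowest of the 3 in both macrophage classes, and its interval (73.4 to 88.4 CPM and 96.7 to 109 CPM) met neither of the others. H2-T23 was chosen for a lower level in KO_DMSO, so this describes that choice and is no test of it. In cDC1-like cells H2-T23 was at 134 CPM in KO_DMSO, 344 CPM in WT_GW5074 and 382 CPM in WT_DMSO. In migratory dendritic cell-like cells it was at 172.5 CPM in KO_DMSO, 481 CPM in WT_GW5074 and 473 CPM in WT_DMSO. The log2 ratio of KO_DMSO over WT_DMSO was −1.23 (interval −1.43 to −1.04) in alveolar macrophage-like, −0.86 (−0.97 to −0.75) in monocyte-derived macrophage-like, −1.51 (−1.74 to −1.28) in cDC1-like and −1.46 (−1.57 to −1.34) in migratory dendritic cell-like cells. It lay between −1.58 and −0.75 over these classes and the 10 alternative settings run on each, and past 1.5-fold in all of them.

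The smaller classes gave H2-T23 fewer UMIs. It was at 133 CPM (KO_DMSO), 323 CPM (WT_GW5074) and 245 CPM (WT_DMSO) in cDC2-like cells, a log2 ratio of KO_DMSO over WT_DMSO of −0.88 (−1.48 to −0.3). T cell-like cells had 113, 233 and 238 CPM in KO_DMSO, WT_GW5074 and WT_DMSO, with a log2 ratio of −1.08 (−1.77 to −0.41). In neutrophil-like cells the levels were 84.9, 151 and 109.5 CPM, from 13, 20 and 265 UMIs, and the ratio of KO_DMSO over WT_DMSO of −0.37 had an interval from −1.3 to 0.43, so a difference was not detectable at this depth. Set against WT_GW5074, the other wild-type library, KO_DMSO was lower by a log2 ratio of −0.79 in alveolar macrophage-like, −0.9 in monocyte-derived macrophage-like, −1.36 in cDC1-like and −1.48 in migratory dendritic cell-like cells.

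The order of classes by H2-T23 was the same in KO_DMSO and WT_GW5074: migratory dendritic cell-like, cDC1-like, cDC2-like, T cell-like, monocyte-derived macrophage-like, neutrophil-like and alveolar macrophage-like. In WT_DMSO the alveolar macrophage-like class (189.5 CPM) stood beside the monocyte-derived one (186.5 CPM), with overlapping intervals, and the neutrophil-like class was lowest (109.5 CPM). In KO_DMSO the highest class exceeded the lowest 2.14-fold, against 3.45-fold in WT_GW5074 and 4.32-fold in WT_DMSO. Only the step between migratory dendritic cell-like and cDC1-like cells separated neighbours beyond their intervals in KO_DMSO. In WT_DMSO 3 steps did: from migratory dendritic cell-like to cDC1-like, from there to cDC2-like, and down to neutrophil-like cells.

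**Figure D1:**
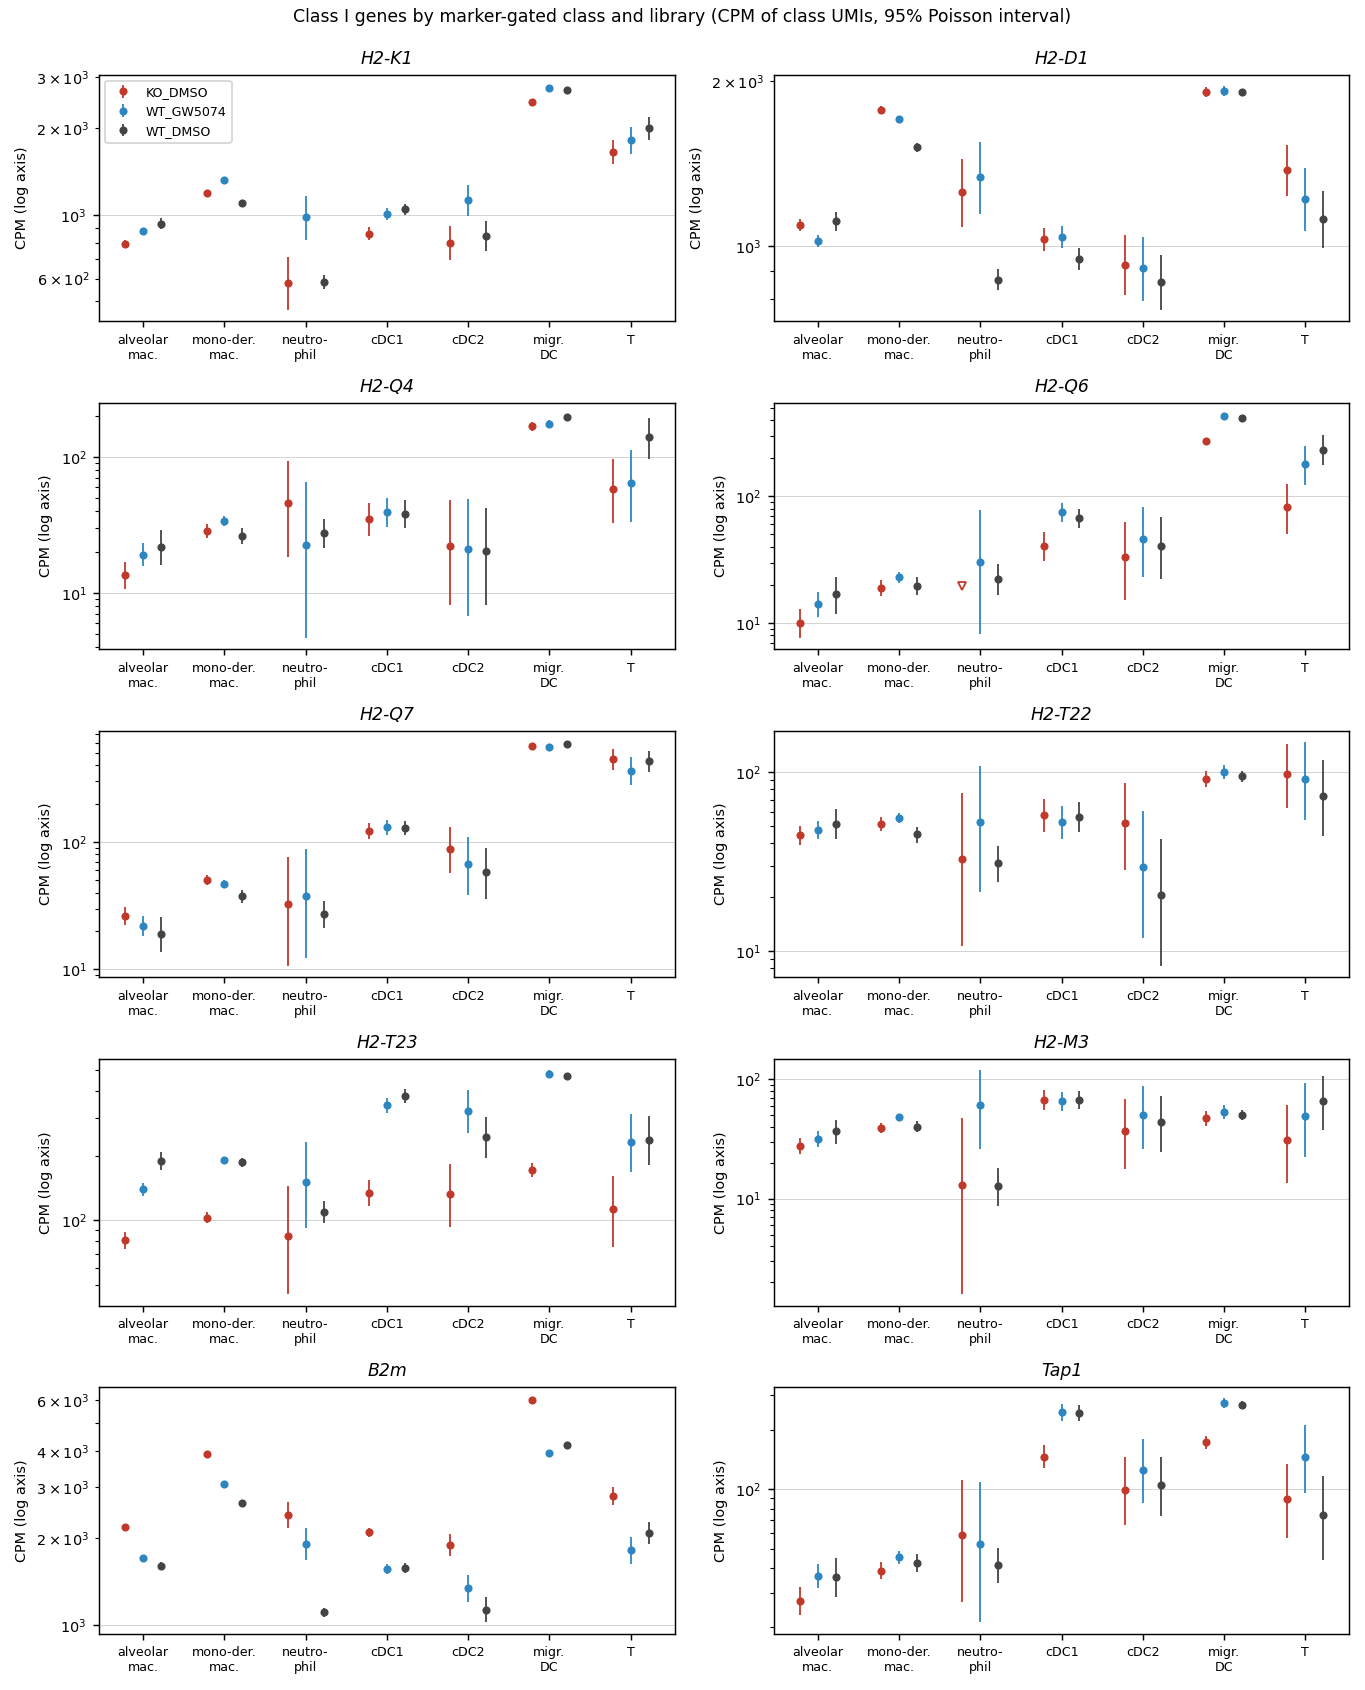
Levels of the 10 class I genes in CPM (log axis) in 7 marker-gated classes, with KO_DMSO left, WT_GW5074 in the middle and WT_DMSO right in each class, and 95% Poisson intervals; the open triangle marks a count of 0 drawn at the limit that 3 counts give. H2-T23 in KO_DMSO lies below both other libraries in each class, B2m lies above them, and H2-Q7 in migratory dendritic cell-like cells is at 568, 557 and 592 CPM.

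H2-T22, the neighbour of H2-T23, was within 1.5-fold in the 4 large classes. It was at 44.3, 47.6 and 51.5 CPM in alveolar macrophage-like cells of KO_DMSO, WT_GW5074 and WT_DMSO and at 91.5, 100.2 and 95.1 CPM in migratory dendritic cell-like cells. The log2 ratios of KO_DMSO over WT_DMSO were −0.22, 0.2, 0.03 and −0.06 in the order of classes used above, and the lowest bound of their intervals was −0.54. After each cell was thinned to 1000 UMIs the ratio in cDC1-like cells was −0.8, past 1.5-fold lower, and it was within 1.5-fold under the other 9 settings. In cDC2-like cells, which gave few UMIs of it, the ratio of 1.34 had an interval from −0.06 to 2.89. The long noncoding gene A930015D03Rik runs over H2-T23 and part of H2-T22 on the other strand. On the other strand Gm11131, Patl2 and Psmb9 likewise overlap H2-Q4, B2m and Tap1. Whether reads were counted by strand is not stated in the sources used here. The ratio of A930015D03Rik was −0.26 in alveolar macrophage-like and −0.16 in migratory dendritic cell-like cells, with intervals that include 0. Reads of a copied sequence can also be lost or misplaced: of 401 windows of 100 bases at the 3′ end of the transcript, 9.73% for H2-T23, 21.2% for H2-T22, 6.48% for H2-Q4 and 6.23% for H2-Q6 occurred in another gene's transcripts, and none for the other members.

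The Q genes did not move together. H2-Q7, chosen as higher in KO_DMSO, was at 26.3 CPM in alveolar macrophage-like cells of KO_DMSO, 22 CPM in WT_GW5074 and 19.1 CPM in WT_DMSO, a log2 ratio of KO_DMSO over WT_DMSO of 0.46 (−0.04 to 0.99). In monocyte-derived macrophage-like cells it was at 50.2 CPM in KO_DMSO, 47.0 CPM in WT_GW5074 and 37.4 CPM in WT_DMSO, a log2 ratio of 0.42 (0.22 to 0.63). Both WT_GW5074 levels lay between the other libraries, and neither ratio reached 1.5-fold. In cDC2-like cells it was at 88.7, 67.2 and 58.2 CPM in KO_DMSO, WT_GW5074 and WT_DMSO, a log2 ratio of 0.61 whose interval (−0.31 to 1.54) includes 0. In the large dendritic classes it was level: 123, 130 and 129.5 CPM in cDC1-like cells and 568, 557 and 592 CPM in migratory dendritic cell-like cells of KO_DMSO, WT_GW5074 and WT_DMSO. The alveolar macrophage value moved with the setting, to 0.98 without the cells with S100a8 or S100a9 (1265 KO_DMSO and 211 WT_DMSO cells left) and to −0.05 after each cell was thinned to 1000 UMIs. Over all kept cells, with no gate, H2-Q7 was at 131 CPM in KO_DMSO, 117.5 CPM in WT_GW5074 and 200.3 CPM in WT_DMSO, where the migratory dendritic cell-like class, its highest, made up 13.8%, 14.1% and 19.7% of cells.

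H2-Q6, which neighbours H2-Q7, was lower in the large dendritic classes of KO_DMSO, where H2-Q7 was level. It was at 271 CPM in migratory dendritic cell-like cells of KO_DMSO, 427 CPM in WT_GW5074 and 417.5 CPM in WT_DMSO, a log2 ratio of KO_DMSO over WT_DMSO of −0.62 (−0.72 to −0.53). In cDC1-like cells it was at 40.5, 75.0 and 67.2 CPM in KO_DMSO, WT_GW5074 and WT_DMSO, a log2 ratio of −0.73 (−1.19 to −0.28). Both WT libraries were above KO_DMSO in these classes and close to each other. The ratio in migratory dendritic cell-like cells was past 1.5-fold in 8 of 10 settings, and was −0.48 under median-of-ratios scaling and −0.58 under a stricter gate. Alveolar macrophage-like cells had 10.1, 14.1 and 16.9 CPM, with a log2 ratio of −0.75 (−1.37 to −0.11). Without cells with a UMI of Krt19, Htr2c or Lepr it was −0.27 and no longer past 1.5-fold, with 933 of 2011 cells left in KO_DMSO, 1365 of 2282 in WT_GW5074 and 421 of 599 in WT_DMSO. The monocyte-derived macrophage-like class stood at 19.0, 23 and 19.8 CPM, with −0.05 (−0.36 to 0.26). T cell-like cells had 81.6, 179 and 234 CPM and a log2 ratio of −1.52 (−2.32 to −0.77). H2-Q4 was at 13.6, 19.2 and 21.9 CPM in alveolar macrophage-like cells, a log2 ratio of −0.69 (−1.23 to −0.14), and at 58.3, 65.0 and 139 CPM in T cell-like cells of KO_DMSO, WT_GW5074 and WT_DMSO. In the other 3 large classes H2-Q4 stayed within 1.5-fold, at 169, 176 and 198 CPM in migratory dendritic cell-like cells. In T cell-like cells the low H2-Q4 level was common to KO_DMSO and WT_GW5074, while the low H2-Q6 level was that of KO_DMSO. These levels rest on 15, 12 and 34 UMIs of H2-Q4 and 21, 33 and 57 of H2-Q6 in KO_DMSO, WT_GW5074 and WT_DMSO. The H2-Q4 ratios over WT_DMSO were −1.26 (−2.24 to −0.34) in KO_DMSO and −1.1 (−2.19 to −0.12) in WT_GW5074.

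The classical chains varied by class more than by library. H2-K1 was highest in migratory dendritic cell-like cells, at 2468.5 CPM in KO_DMSO, 2758 CPM in WT_GW5074 and 2718 CPM in WT_DMSO, and was at 791, 875 and 929.9 CPM in alveolar macrophage-like cells. H2-D1 was at 1913, 1922 and 1908 CPM in migratory dendritic cell-like cells of KO_DMSO, WT_GW5074 and WT_DMSO and at 1774, 1707 and 1513.5 CPM in monocyte-derived macrophage-like cells. The log2 ratios of KO_DMSO over WT_DMSO ran from −0.28 to 0.11 for H2-K1 and from −0.02 to 0.23 for H2-D1 over the 4 large classes. Such counts make narrow intervals, so ratios this small can exclude 0 without being past 1.5-fold. H2-M3 was highest in cDC1-like cells in each library, at 67.3, 65.3 and 67.2 CPM in KO_DMSO, WT_GW5074 and WT_DMSO. Over the 4 large classes its ratios ran from −0.4 in alveolar macrophage-like cells (−0.79 to 0.01) to 0.0 in cDC1-like cells, and in T cell-like cells the ratio was −1.08 (−2.51 to 0.23), from 8 UMIs in KO_DMSO and 16 in WT_DMSO. In the few neutrophil-like cells of WT_GW5074 (113, against 2657 in WT_DMSO) H2-M3 was at 60.4 CPM from 8 UMIs, against 12.8 CPM from 31 UMIs in WT_DMSO, and H2-K1 at 981 CPM against 584 CPM (0.75, 0.48 to 1.01).

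B2m, the shared light chain, was higher in KO_DMSO in each of the 7 classes. It was at 2178 CPM in alveolar macrophage-like cells of KO_DMSO, 1709 CPM in WT_GW5074 and 1602 CPM in WT_DMSO, and at 3914.5, 3081 and 2637 CPM in monocyte-derived macrophage-like cells. In migratory dendritic cell-like cells it was at 6010.8 CPM in KO_DMSO, 3921 CPM in WT_GW5074 and 4209 CPM in WT_DMSO. The log2 ratio of KO_DMSO over WT_DMSO was 0.44 (0.39 to 0.5), 0.57 (0.55 to 0.59), 0.41 (0.34 to 0.48) and 0.51 (0.49 to 0.54) in the 4 large classes in the order used above, inside 1.5-fold. It was 0.74 (0.55 to 0.93) in cDC2-like, 0.42 (0.26 to 0.59) in T cell-like and 1.12 (0.96 to 1.28) in neutrophil-like cells. In neutrophil-like cells WT_GW5074 was also higher than WT_DMSO (0.79, 0.6 to 0.98), and KO_DMSO over WT_GW5074 was 0.33 (0.1 to 0.57). Under some alternatives the ratio of KO_DMSO over WT_DMSO passed 1.5-fold. It did so in 4 of 10 for monocyte-derived macrophage-like cells, 2 of 10 for alveolar macrophage-like cells, 1 of 10 for migratory dendritic cell-like cells and 0 of 10 for cDC1-like cells. Set against WT_GW5074, the KO_DMSO ratio was between 0.33 and 0.63 in the 7 classes. The summed neutrophil markers were lower in KO_DMSO than in WT_DMSO in each of these classes, and without cells with S100a8 or S100a9 the ratios of B2m in the large classes were 0.59, 0.7, 0.46 and 0.55.

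Tap1 was lower in KO_DMSO in both large dendritic classes. It was at 146 CPM in cDC1-like cells of KO_DMSO, against 245 CPM in WT_GW5074 and 244.5 CPM in WT_DMSO, a log2 ratio of KO_DMSO over WT_DMSO of −0.74 (−0.98 to −0.51). In migratory dendritic cell-like cells it was at 173 CPM in KO_DMSO, 274 CPM in WT_GW5074 and 267 CPM in WT_DMSO, a log2 ratio of −0.63 (−0.75 to −0.51). The WT libraries were nearly equal in both classes and neither interval met that of KO_DMSO. In cDC1-like cells the call was lost under a stricter gate (−0.56), and in migratory dendritic cell-like cells under median-of-ratios scaling (−0.48), a mean of CPM per cell (−0.54) and thinning (−0.55). The macrophage classes were at 27.3, 36.5 and 36.0 CPM (alveolar) and 38.7, 45.3 and 42.6 CPM (monocyte-derived), with ratios of −0.4 (−0.8 to 0.01) and −0.14 (−0.35 to 0.07). Without cells with S100a8 or S100a9 the alveolar ratio was −0.79, past 1.5-fold. Its partner Tap2 had ratios of −0.59, −0.68, −0.72 and −0.56 in the 4 large classes. Those of Psmb9, which overlaps the start of Tap1 on the other strand, were −0.79, −0.31, −0.63 and −0.47.

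UMIs of 3′ ends count molecules rather than bases, so members can be added up. The 8 heavy chain genes together reached 2085.8, 2169 and 2376 CPM in alveolar macrophage-like cells and 5699.6, 6475 and 6451 CPM in migratory dendritic cell-like cells of KO_DMSO, WT_GW5074 and WT_DMSO. H2-K1 and H2-D1 made up 76.9%, 72.3% and 71.7% of these UMIs in migratory dendritic cell-like cells. H2-T23 made up 3.87%, 6.44% and 7.98% in alveolar macrophage-like, 5.71%, 12.5% and 14.0% in cDC1-like and 3.03%, 7.44% and 7.34% in migratory dendritic cell-like cells. There were 1.04, 0.788 and 0.674 B2m UMIs per heavy chain UMI in alveolar macrophage-like cells of KO_DMSO, WT_GW5074 and WT_DMSO and 1.05, 0.606 and 0.652 in migratory dendritic cell-like cells. The KO_DMSO library had the smallest H2-T23 share and the most B2m per heavy chain in these classes. H2-T23 was chosen as lower in KO_DMSO, so its share restates that choice. It is also among the 8 heavy chain genes by which B2m was divided, so that ratio is not free of the choice.

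**Figure D2:**
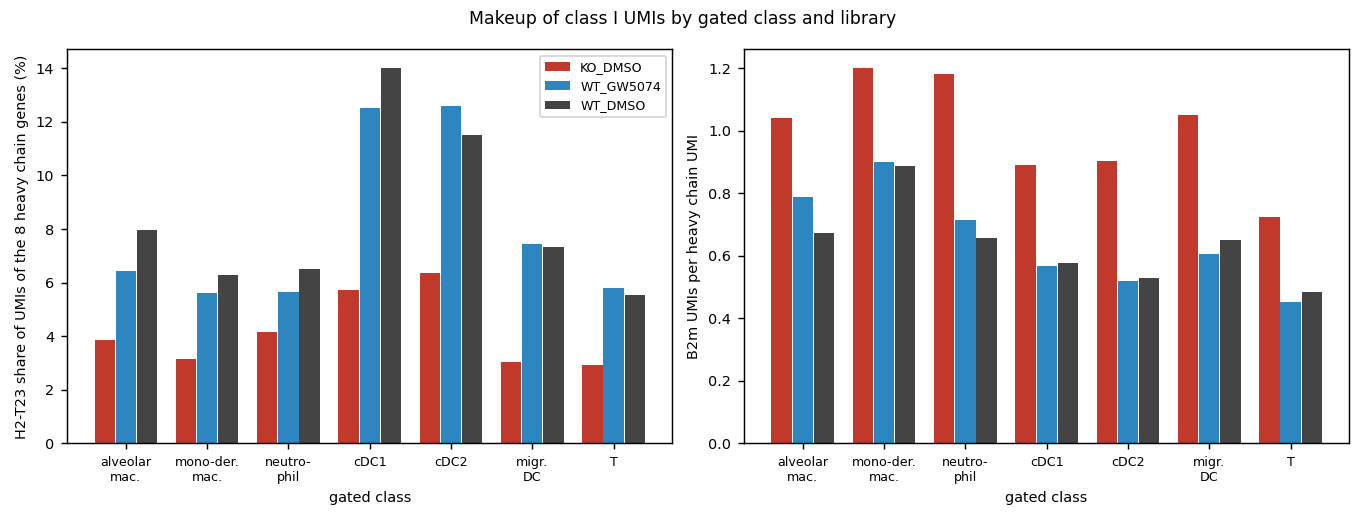
Share of H2-T23 among UMIs of the 8 heavy chain genes in percent (left) and B2m UMIs per heavy chain UMI (right), in 7 marker-gated classes, with bars for KO_DMSO, WT_GW5074 and WT_DMSO from left to right and no error bars. In migratory dendritic cell-like cells the H2-T23 share was 3.03% in KO_DMSO, 7.44% in WT_GW5074 and 7.34% in WT_DMSO.

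Counted by a fold of at least 1.5, with at least 10 CPM in either library, which all 10 members had in the 4 large classes, 3 of 10 members were lower in KO_DMSO than in WT_DMSO in alveolar macrophage-like cells, where 6.56% of all genes were. It was 1 of 10 in monocyte-derived macrophage-like cells (5.0% of all genes), 3 of 10 in cDC1-like cells (12.8%) and 3 of 10 in migratory dendritic cell-like cells (14.8%). None of the 10 was higher in any of the 4, where 4.23%, 1.56%, 7.91% and 4.76% of all genes were. H2-T23 is in each of these counts of lower members and chose the set, so nothing is read from them. The median log2 ratio of the members was −0.31, 0.12, −0.1 and −0.11 in the 4 classes, beside −0.04, −0.1, −0.07 and −0.14 over all genes. WT_GW5074 over WT_DMSO, which uses the same WT_DMSO library, had 0 of 10 members past 1.5-fold in either direction in each class. Of all genes, 2.72%, 0.722%, 8.68% and 5.16% were higher and 1.82%, 1.12%, 3.59% and 4.2% lower in these 4 classes. The GW5074 ratios of H2-T23 were −0.44 (−0.61 to −0.27), 0.04 (−0.05 to 0.13), −0.15 (−0.31 to 0.01) and 0.02 (−0.05 to 0.1). Its level in alveolar macrophage-like cells of WT_GW5074 lay between those of KO_DMSO and WT_DMSO. In monocyte-derived macrophage-like cells all 10 members had a GW5074 ratio above 0, with a median of 0.24 beside −0.03 over all genes.

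**Figure D3:**
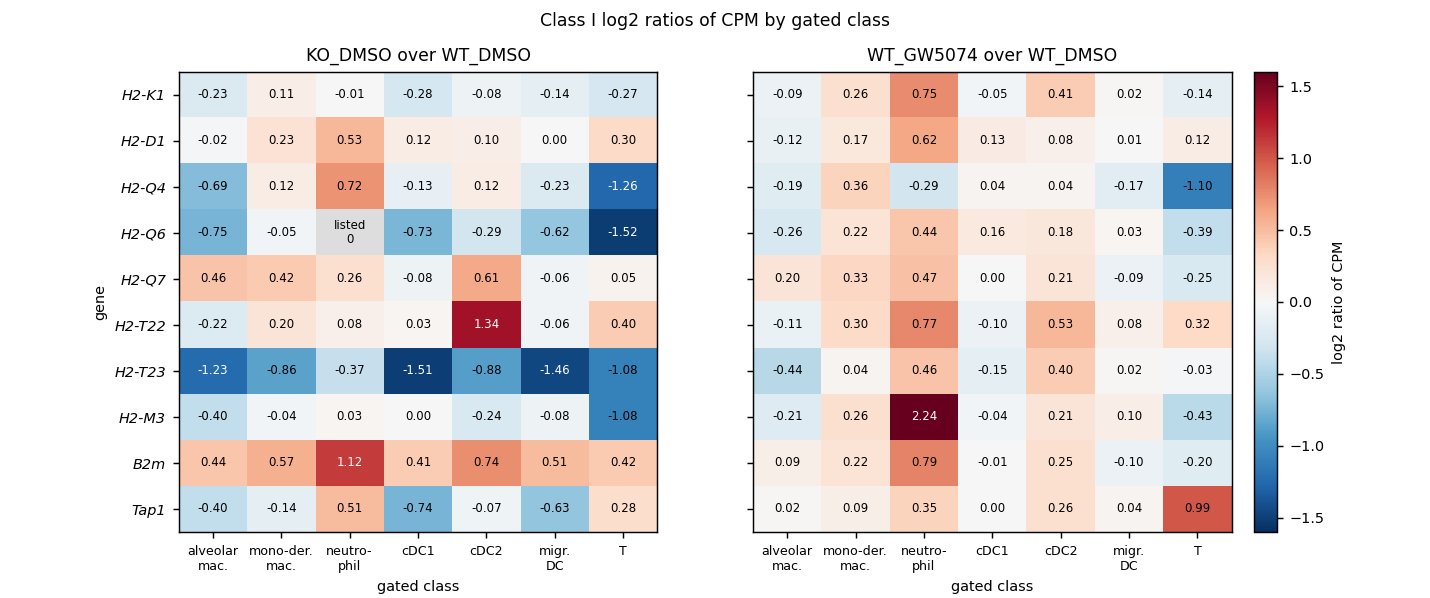
Log2 ratio of CPM for the 10 genes (rows) in 7 marker-gated classes (columns), KO_DMSO over WT_DMSO left and WT_GW5074 over WT_DMSO right, with red for higher and blue for lower in the first-named library; H2-Q6 in neutrophil-like cells is listed at 0 in KO_DMSO, and H2-M3 in neutrophil-like cells (2.24) is past the end of the colour scale. The H2-T23 row is −1.23, −0.86, −1.51 and −1.46 in the large classes on the left, and between −0.44 and 0.04 in the same classes on the right.

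Along the MHC from H2-K1 to H2-M3 (chr17:33996017-37274484, 3.28 Mb), 193 of the 302 annotated genes were in the files and 67 to 77 reached 10 CPM in a class. Lower in KO_DMSO than in WT_DMSO by at least 1.5-fold were 13 of 68 (19.1%) in alveolar macrophage-like cells, 7 of 67 (10.4%) in monocyte-derived macrophage-like, 20 of 75 (26.7%) in cDC1-like and 13 of 73 (17.8%) in migratory dendritic cell-like cells, against the 6.56%, 5.0%, 12.8% and 14.8% of all genes given above. Higher were 1, 1, 6 and 5 genes. The median ratio along the region was −0.16, −0.06, −0.13 and −0.08. In each class most measured genes of the region stayed within 1.5-fold, as did most of all genes. The lower genes of the region include the 3, 1, 3 and 3 lower members, among them H2-T23, which was chosen as lower. In WT_GW5074 over WT_DMSO 1 of 68, 1 of 67, 5 of 77 and 3 of 74 genes of the region were higher and 2, 2, 0 and 4 lower, shares of 1.47%, 1.49%, 6.49% and 4.05% higher and 2.94%, 2.99%, 0.0% and 5.41% lower. Of 60 genes measured in all 4 classes, H2-T23, Ier3 and Prr3 were lower in all 4, 5 more (H2-Q6, Rxrb, Skiv2l, Slc39a7 and Tap2) in 3, and none was higher in 3 or 4. Over all genes, 62 of 6655 (0.932%) were lower and 22 (0.331%) higher in all 4 classes. Shares of all genes called in 3 classes were not computed. H2-T23 was number 13 of the lower genes by mean ratio, with Clec7a first. It was chosen as lower in this comparison, so its place describes that choice and is no test.

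The 5 lowest ratios of KO_DMSO over WT_DMSO in alveolar macrophage-like cells were those of H2-T23 (−1.23), Skiv2l (−1.11), C4b (−0.95), Ier3 (−0.89) and Prr3 (−0.82). The 5 highest were those of Tnf (0.97), H2-Q7 (0.46), 2310061I04Rik (0.45), Ppp1r10 (0.37) and Nfkbil1 (0.36). H2-T23 and H2-Q7 were chosen for these directions, so their places in such rankings describe that choice. The H2-Q7 interval (−0.04 to 0.99) includes 0. In monocyte-derived macrophage-like cells the lowest were C4b (−1.83), H2-T23 (−0.86), Ier3 (−0.78), D17H6S53E (−0.71) and Prr3 (−0.69), and the highest Tnf (0.68) and 4 genes of antigen presentation and complement, H2-Aa (0.58), Cfb (0.54), H2-Eb1 (0.54) and H2-Ab1 (0.44). Ier3, a stress-induced gene at −0.211 Mb from H2-T23, was at 15.0 CPM in alveolar macrophage-like cells of KO_DMSO, 12.9 CPM in WT_GW5074 and 27.8 CPM in WT_DMSO, and at 12.6, 17.4 and 36.1 CPM in migratory dendritic cell-like cells. It was thus past 1.5-fold lower in both classes of WT_GW5074 as well, where H2-T23 was within 1.5-fold. Skiv2l, an RNA helicase gene, was at 21.5, 46.2 and 46.5 CPM in alveolar macrophage-like cells of KO_DMSO, WT_GW5074 and WT_DMSO, a ratio of KO_DMSO over WT_DMSO of −1.11 (−1.5 to −0.72). Slc39a7, a zinc transporter gene, was at 46.2, 76.1 and 75.2 CPM, a ratio of −0.7 (−0.99 to −0.41). The complement gene C4b had the lowest ratio in monocyte-derived macrophage-like cells, at 4.35 CPM in KO_DMSO and 15.5 CPM in WT_DMSO (−1.83, −2.35 to −1.33), and its GW5074 ratio was −0.95. On the other side, Tnf had the highest ratio in both macrophage classes, 0.97 (0.23 to 1.79) and 0.68 (0.33 to 1.03), and Clic1 and the class II gene H2-Aa were higher in migratory dendritic cell-like cells, at 0.76 (0.64 to 0.88) and 0.69 (0.66 to 0.72). The lowest ratio in cDC1-like cells was that of the heat shock gene Hspa1b, −1.92 (−3.35 to −0.72), from 4.57 CPM in KO_DMSO and 17.3 CPM in WT_DMSO, and its GW5074 ratio in migratory dendritic cell-like cells was −1.24.

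**Figure D4:**
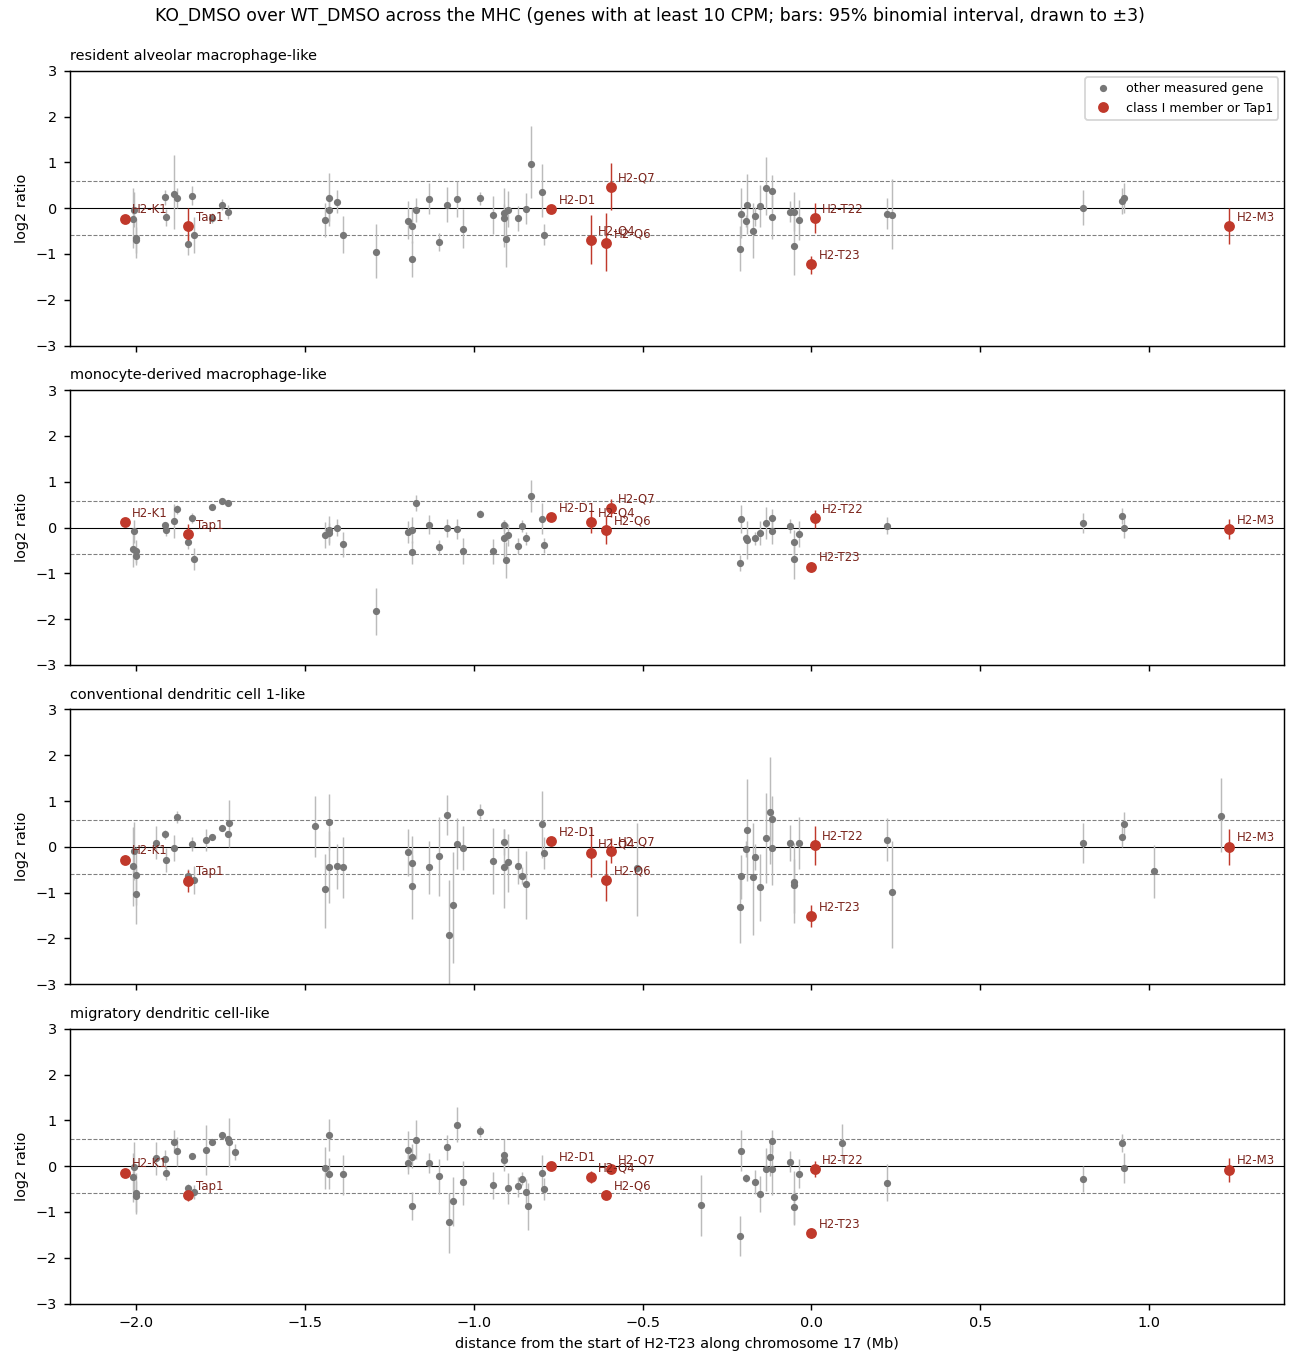
Log2 ratio of KO_DMSO over WT_DMSO for genes with at least 10 CPM along the MHC of chromosome 17, by distance from the start of H2-T23 in Mb, in 4 marker-gated classes, with 95% binomial intervals as bars drawn up to 3 in size, dashed lines at 1.5-fold and red for class I members and Tap1. H2-T23 is below −0.8 in each panel while H2-T22 beside it lies between −0.22 and 0.2.

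The rest of the class I pathway was taken from lists, with the same fold and level, and only genes at 10 CPM or more were counted. Of all genes 4.23%, 1.56%, 7.91% and 4.76% were higher and 6.56%, 5.0%, 12.8% and 14.8% lower in KO_DMSO in the 4 classes, as given above. In WT_GW5074 over WT_DMSO 2.72%, 0.722%, 8.68% and 5.16% were higher and 1.82%, 1.12%, 3.59% and 4.2% lower. Nothing is read from list counts of 1 or 2 genes. Of 17 genes of peptide supply and loading, 1 was higher and 2 were lower in alveolar macrophage-like cells of KO_DMSO than of WT_DMSO: the chaperone Hspa5 at 659 and 388 CPM (0.76, 0.66 to 0.87), Psmb9 at 63.7 and 109.8 CPM (−0.79, −1.02 to −0.54) and Tap2 at 27.2 and 41.0 CPM (−0.59, −0.98 to −0.2). Among monocyte-derived macrophage-like cells 1 was higher, Hspa5 (0.75), and 1 lower, Tap2 (−0.68). In cDC1-like cells 1 was higher and 3 were lower, and in migratory dendritic cell-like cells 1 was higher and 1 lower. The list medians were 0.03, 0.0, −0.11 and 0.04. Psmb8, the immunoproteasome subunit coded on the other side of Tap1 from Psmb9, had ratios of 0.27, 0.2, 0.06 and 0.23. In WT_GW5074 no gene of this list was past 1.5-fold in the macrophage classes and 1, the oxidase subunit Cybb, was higher in both large dendritic classes, with ratios of 2.02 and 1.47, as it was in KO_DMSO with 1.27 and 0.98.

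Of 19 regulators of class I transcription, 17, 17, 18 and 18 were counted in the 4 classes, and Nfya, a subunit of the CCAAT-binding factor NF-Y, was lower in KO_DMSO in all 4 classes. It was at 32.8 and 56.0 CPM in alveolar macrophage-like cells of KO_DMSO and WT_DMSO (−0.77, −1.11 to −0.43) and at 70.9 and 126 CPM in migratory dendritic cell-like cells (−0.83, −1.02 to −0.64). The other regulators past 1.5-fold in a macrophage class of KO_DMSO were Rfxap, higher in alveolar macrophage-like cells (0.69, 0.02 to 1.42), and Irf7, an interferon-induced factor, higher in monocyte-derived macrophage-like cells at 22.9 and 12.4 CPM (0.89, 0.54 to 1.24). In all, 1, 1, 2 and 1 regulators were higher and 1, 1, 2 and 2 lower over the 4 classes, with medians of −0.11, −0.06, −0.11 and −0.16. Nlrc5 was at 22.2, 24.1 and 26.0 CPM in alveolar macrophage-like cells of KO_DMSO, WT_GW5074 and WT_DMSO and at 248, 261 and 258 CPM in migratory dendritic cell-like cells, within 1.5-fold in both. In WT_GW5074, 1 regulator was higher in alveolar macrophage-like cells, Ciita (0.59), and 1 in monocyte-derived macrophage-like cells, Irf7 (0.65), with none lower in any of the 4 classes.

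Of 18 interferon-induced genes, 9, 12, 11 and 9 reached 10 CPM in the 4 classes in the comparison of KO_DMSO with WT_DMSO. In alveolar macrophage-like cells Gbp7 was higher (0.89), and Isg15 (−0.94), Ifit1 (−1.54) and Irgm1 (−0.78) were lower, with a list median of −0.03. For monocyte-derived macrophage-like cells, Ifit3 (1.14), Oas1a (0.82) and Gbp2 (0.86) were higher and the chemokine Cxcl9 (−1.2) lower, with a median of 0.3. In cDC1-like cells 4 were higher and 1 lower, and in migratory dendritic cell-like cells 1 and 1. Irgm1 was lower in 3 of the 4 large classes, with ratios of −0.78, −1.02 and −0.97, and not past 1.5-fold in monocyte-derived macrophage-like cells. WT_GW5074 had 5 of 15 higher and 1 lower in monocyte-derived macrophage-like cells, beside 0.722% and 1.12% of all genes. These were Ifit1 (1.33), Ifit2 (1.03), Ifit3 (1.03), Oas1a (0.73) and Usp18 (0.66) against Cxcl9 (−1.91). In alveolar macrophage-like cells of WT_GW5074 Zbp1 was higher (0.72) and Ifit1 lower (−1.67).

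Of 10 class II genes, 8, 8, 10 and 10 were counted in KO_DMSO. The invariant chain Cd74 was higher in monocyte-derived macrophage-like cells of KO_DMSO, at 4887 CPM in KO_DMSO and 2940.0 CPM in WT_DMSO (0.73, 0.71 to 0.76), and 0, 1, 1 and 3 were higher and none lower over the 4 classes, with medians of 0.15, 0.42, 0.27 and 0.45. The GW5074 medians were 0.1, 0.08, −0.04 and 0.26. Of 23 other class I genes of the MHC 15 were in the files, and at most 3 reached 10 CPM in a class. The 1 past 1.5-fold was H2-M2, at 20.6 CPM in monocyte-derived macrophage-like cells of WT_GW5074 and 13.5 CPM in WT_DMSO (0.61, 0.3 to 0.94). Of 8 measured class I-like genes outside the MHC, 6 reached 10 CPM in alveolar and 7 in monocyte-derived macrophage-like cells, and none of these was past 1.5-fold there in either comparison. In migratory dendritic cell-like cells of KO_DMSO the lipid-presenting Cd1d1 was lower, at 14.3 and 38.1 CPM (−1.42, −1.84 to −1.01), and the NKG2D ligand Ulbp1 higher (0.66). Of 10 receptors of class I, 4 reached 10 CPM in each macrophage class, and none of the 4 was past 1.5-fold there in KO_DMSO. Of 5 receptors counted in cDC1-like cells, 2 were higher in KO_DMSO than in WT_DMSO, where 7.91% of all genes were. In WT_GW5074 over WT_DMSO 2 of 5 were also higher there, beside 8.68% of all genes, and the list medians were 0.45 and 0.44. Klrd1, the CD94 chain that binds Qa-1, was higher in cDC1-like cells of KO_DMSO, at 199 and 108 CPM (0.87, 0.61 to 1.14). These dendritic cell examples were chosen after their values were seen.

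Over 21 sums of class and library and 11606 genes with at least 10 CPM in 1 of them, the genes most like H2-T23 by Pearson correlation of log2(CPM + 1) were Uqcrh (0.885), Itm2c (0.878), Tyk2 (0.841), Sod1 (0.835) and Arrdc1 (0.808). Those most like H2-Q7 were Rabgap1l, Nlrc5 and Kdm2b (0.954 each), Cblb (0.947) and Gramd3 (0.932). The sums share libraries and classes, so these values describe the pattern and have no test.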

How the data were processed

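The authors deposited raw UMI counts per gene and cell barcode for 3 droplet 3′ libraries, made with Cell Ranger 2.1.1 on mm10 per the submitters' processing notes. The labels name both a SeekOne chip and 10x. Whether reads were counted by strand and how multiply mapped reads were treated is not given in the sources used here.

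A cell needed 200 or more genes and no more than 20% of UMIs from mitochondria, which left 11642, 17792 and 13454 in KO_DMSO, WT_GW5074 and WT_DMSO. No doublet caller was run. The gate drops only cells with under 2 markers of a class or a share under 2 times the next, so gated cells can carry markers of other classes (a median of 3.0, 2.0 and 4.0 in cDC1-like cells of KO_DMSO, WT_GW5074 and WT_DMSO). Class UMIs were summed per library and divided by the class total (CPM), with exact Poisson intervals. Ratios have exact conditional binomial intervals at 95%, and UMIs of a gene at 0 are drawn at 3 counts. The calculation was tested on simulated counts with planted 3-fold changes. These were drawn with counting error only, so the test covers neither changes near 1.5-fold nor variation between mice. Python 3.11.15, numpy 2.4.6, scipy 1.17.1, pandas 2.3.3 and matplotlib 3.10.9 were used.

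A gene counted as past 1.5-fold at 10 CPM or more in either library. Members and lists were chosen with earlier results of these data known, and the gate's thresholds and markers after cells had been seen. Named were all members, list genes past 1.5-fold in the macrophage classes, the 5 highest and 5 lowest ratios of the region in the macrophage classes, with examples in dendritic cells, and the 5 genes most like H2-T23 and H2-Q7. Of 32286 gene IDs, 32159 matched the annotation. For each member and large class, 10 alternatives were run.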

Additional observations from a re-analysis of the deposited data

How the results depend on the processing

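No paired analysis was possible because each group has 1 library, so no library could be left out either. Of 800 single gene values under 10 alternatives, 725 stayed within the interval of the reported value, 75 lay outside it and 0 turned a value past 1.5-fold to the other sign. H2-T23 in KO_DMSO was past 1.5-fold lower in the 4 large classes under all 10. Median-of-ratios scaling moved the ratios of KO_DMSO over WT_DMSO by 0.06, 0.11, 0.06 and 0.15 in alveolar, monocyte-derived, cDC1-like and migratory dendritic cell-like cells, so values there are relative to that shift. Under it the lower members of migratory dendritic cell-like cells numbered 1, H2-T23, against 3 (2 under a mean of CPM per cell, a stricter gate and thinning), and the higher ones 1, B2m (0.66), against 0. Members higher in KO_DMSO numbered 2 in alveolar macrophage-like cells without cells with Krt19, Htr2c or Lepr (H2-Q7 0.66 and B2m 0.64) and 2 without cells with S100a8 or S100a9 (H2-Q7 0.98 and B2m 0.59), against 0, while the lower ones numbered 2 (H2-Q6 lost) and 4 (Tap1 gained), against 3. Lower members of cDC1-like cells numbered 2 under a stricter gate (Tap1 lost) and 4 after thinning (H2-T22 gained), against 3. In monocyte-derived macrophage-like cells the members higher in KO_DMSO numbered 1, B2m, under median-of-ratios scaling, a mean of CPM per cell, without cells with S100a8 or S100a9 and after thinning, against 0. In WT_GW5074 alveolar macrophage-like cells 1 member was higher without cells with S100a8 or S100a9, H2-Q7 (0.85), and 2 were lower after thinning, H2-Q4 (−0.79) and H2-M3 (−0.6), against 0 each. For these the cause was not tested. With no filter on low values, and with at least 50 CPM, which by construction test more and fewer genes, the genes past 1.5-fold in KO_DMSO numbered 6158 and 247 in alveolar macrophage-like cells (against 913) and 6228 and 142 in monocyte-derived ones (against 546). In WT_GW5074 they numbered 5429 and 41 (against 384) and 6097 and 28 (against 153). Along the MHC they numbered 54 and 4 (against 14) and 38 and 3 (against 8) in KO_DMSO, and in WT_GW5074 44 and 0 (against 3) in alveolar and 43 with no filter (against 3) in monocyte-derived macrophage-like cells. The cDC2-like and T cell-like sums, and the neutrophil-like sums of KO_DMSO and WT_GW5074, hold 132519 to 343427 UMIs, which limits what their values can show.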

Other observations

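H2-Q10, a nonclassical class I gene outside the 10 described and named here after its values were seen, was at 183 CPM in neutrophil-like cells of KO_DMSO (28 UMIs), 30.2 CPM in WT_GW5074 (4 UMIs) and 131 CPM in WT_DMSO (316 UMIs). In alveolar macrophage-like cells it was at 0.176, 0.0 and 0.456 CPM in KO_DMSO, WT_GW5074 and WT_DMSO, and in migratory dendritic cell-like cells at 0.968, 0.851 and 2.19 CPM. None of its 401 windows of 100 bases at the 3′ end occurred in another gene's transcripts.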
